A study of Mus musculus and Rattus norvegicus with 32 samples.

Results

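The effect of trichloroethylene (TCE), a chlorinated solvent, on rat liver was compared between repeated and single dosing, gene by gene. The comparison used the 16 rat arrays of the 32 in the series; the other 16 hold mouse liver and were not used. Male SD rats received TCE in corn oil, or corn oil alone, by gavage. The 4 groups of 4 arrays were repeated-dose TCE and repeated-dose corn oil (1500 mg/kg or oil daily for 14 days, animals of 10 weeks) and single-dose TCE and single-dose corn oil (1500 mg/kg or oil on 1 day, animals of 8 weeks). All livers were taken 18 h after the last gavage, and all animals, controls included, received corn oil. The number of doses, the length of dosing and age go together in this design and cannot be told apart. Each schedule had oil controls of its own, so the effects of the schedules share no array. The labels number 4 samples per group without stating that each is a separate animal, so a p-value here speaks of the scatter among samples, which may be technical.

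As background, TCE is oxidised in the liver by cytochrome P450 enzymes to chloral, which is turned into trichloroethanol and chlorinated acetic acids, while a smaller flow is conjugated to glutathione. Trichloroacetate and dichloroacetate activate PPARα, the nuclear receptor that senses fatty acids. In rodent liver PPARα switches on peroxisomal and mitochondrial fatty acid β-oxidation and the microsomal ω-hydroxylation of fatty acids, and its long activation multiplies peroxisomes. A different arm of the response, run by the transcription factor NRF2, answers reactive molecules with enzymes of glutathione synthesis and of aldehyde and quinone reduction.

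Each deposited value was an array's signal divided by the median over the schedule's own 4 oil arrays, so the level of a gene is not known and a ratio of 1 marks the oil median. Effects are differences of mean log2 ratio, TCE minus oil, with their standard error (SE, n = 4 and 4 arrays), and the difference is the repeated-dose effect minus the single-dose effect. A change was called at a limma p-value under 0.05 after Benjamini-Hochberg adjustment over all 8732 probe sets. A gene is given by its probe set of smallest spread within groups. The median effect over all 4736 genes was 0.04 after repeated doses and 0.12 after 1 dose on the log2 scale, and this shift was left in the effects.

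Several arrays stood apart. The log2 value of the Gapdh control, 3′ end minus 5′ end, which grows as transcripts are shortened, was above 1 on repeated-dose TCE 3 (2.07), repeated-dose TCE 4 (1.60) and single-dose TCE 4 (1.90). It averaged 1.20 ± 0.78 (SD) on repeated-dose TCE arrays, against 0.12 ± 0.33 on their oil arrays, and 0.26 ± 1.14 on single-dose TCE arrays, against -0.04 ± 0.18 on theirs. Exact permutation tests gave p = 0.0571 and p = 0.886 for these contrasts, where 4 against 4 arrays can reach 0.0286. Single-dose oil 3 carried transcripts of the exocrine pancreas: 20 of 24 measured pancreas markers were highest on it, with a median log2 ratio of 4.08 and a ratio of 654 for the trypsin gene Prss1. Hepatocyte markers had median log2 ratios between -0.07 and 0.07 on repeated-dose TCE arrays and between -0.34 and -0.13 on single-dose TCE arrays. Without single-dose oil 3 and the 3 arrays of high Gapdh value, which leaves 2 repeated-dose TCE arrays, calls numbered 96 after repeated doses, 5 after 1 dose and 3 under both.

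Repeated dosing changed 251 of 8732 probe sets (2.87%), 192 upward and 59 downward, and 1 dose changed 150 (1.72%), 106 upward and 44 downward. With each array centred on its median, calls were 170 upward and 74 downward after repeated doses and 77 upward and 108 downward after 1 dose. Leaving out 1 array at a time gave between 100 and 316 calls after repeated doses and between 22 and 221 after 1 dose. Quantile normalization, which forces all arrays to one distribution, left 7 calls after repeated doses and 2 after 1 dose. Of the genes named below it kept 3 of 60 repeated-dose calls (Acaa1b, Aldh1a1 and Gsta3) and 1 of 40 single-dose calls (Gsta3). Under both schedules 61 probe sets (0.699%) changed in one direction, 50 upward and 11 downward, which is 24.3% of the repeated-dose calls and 40.7% of the single-dose calls. No probe set was called in opposite directions.

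No probe set passed the test of the difference between the schedules' effects, with a smallest adjusted p of 0.127 in limma and 817 probe sets (9.36%) at an unadjusted p under 0.05. Over all 8732 probe sets the median 95% interval of a difference reached 0.96 log2 units to either side of its estimate. Across probe sets, the 2 effects correlated with a Pearson r of 0.357 and a Spearman rho of 0.310. This describes probe sets that share arrays and are not independent replicates.

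**Figure D1:**
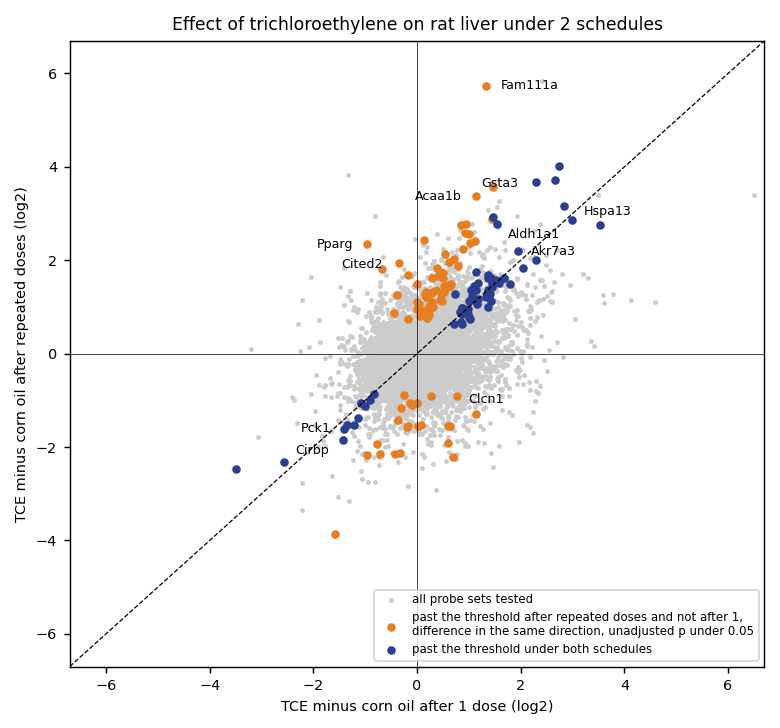
Log2 effect of TCE in rat liver after repeated doses (vertical axis) against that after 1 dose (horizontal axis), 1 point per probe set (8732). Blue points are the 61 probe sets called under both schedules, of which 36 had a 95% interval of the difference within -1 to 1 (the dashed line marks equal effects), and orange points those called after repeated doses and not after 1 dose, whose difference had the same sign and an unadjusted p under 0.05. Acaa1b lies at 3.37 after repeated doses and 1.15 after 1 dose.

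Enzymes of detoxification were among the genes changed under both schedules. Of the 34 genes called under both (0.718% of 4736 genes), 28 were higher and 6 lower on TCE arrays. Akr7a3, an aldo-keto reductase that reduces toxic aldehydes, had ratios of 4.05, 4.81, 5.51 and 4.87 on repeated-dose TCE arrays, against 0.906, 1.09, 0.835 and 1.43 on their oil arrays. On single-dose TCE arrays they were 3.41, 2.86, 3.90 and 4.48, against 1.25, 0.973, 0.610 and 1.03 on oil arrays. Every TCE array lay above every oil array of its schedule, at a like height under both. The groups were apart in one direction under both schedules, at any height, for 133 of 4736 genes (2.81%). Within 1 schedule, TCE arrays all lay above oil arrays for 8.55% of genes after repeated doses and for 8.8% after 1 dose, and all below for 4.58% and 4.12%. Akr7a3 rose by 2.20 ± 0.24 after repeated doses (adjusted p = 0.000278) and by 1.95 ± 0.24 after 1 dose (adjusted p = 0.00242), a difference of 0.25 with a 95% interval of -0.48 to 0.97. Gclm, the modifier subunit of the enzyme that limits glutathione synthesis, had 4.08, 3.37, 2.17 and 4.23 on repeated-dose TCE arrays, against 0.776, 1.55, 0.926 and 1.07 on oil arrays. Its single-dose ratios were 2.25, 1.43, 3.69 and 3.52 with TCE and 1.26, 0.854, 1.15 and 0.757 with oil. The groups did not overlap under either schedule, but the lowest TCE array was only just above the highest oil array after 1 dose. Gclm rose by 1.68 ± 0.33 after repeated doses and 1.37 ± 0.33 after 1 dose (adjusted p = 0.0142 and 0.0498), with a difference of 0.31 (-0.68 to 1.30).

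Gsta3, an alpha-class glutathione transferase, had the smallest adjusted p of any named gene under each schedule. Its ratios were 11.6, 12.9, 16.9 and 10.0 on repeated-dose TCE arrays, against 0.890, 1.28, 1.11 and 0.738 on oil arrays. After 1 dose they were 4.63, 5.29, 6.92 and 4.11 with TCE, against 0.834, 0.952, 1.47 and 1.05 with oil. All 4 repeated-dose TCE arrays were above all 4 single-dose ones, each set against its own oil median. The rise was 3.68 ± 0.25 after repeated doses (adjusted p = 2.63e-06) and 2.29 ± 0.25 after 1 dose (adjusted p = 0.000947). The difference of 1.39 (95% interval 0.65 to 2.14) had an adjusted p of 0.378 and did not pass. All 3 of its probe sets passed under both schedules, with effects of 3.68 to 4.02 after repeated doses and 2.29 to 2.74 after 1 dose. Alpha-class transferases are close in sequence, and the probe sets may read more than 1 of them.

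Aldh1a1, a cytosolic aldehyde dehydrogenase best known for making retinoic acid, followed the same order. It had ratios of 7.65, 6.37, 9.42 and 5.22 on repeated-dose TCE arrays and 0.952, 1.05, 1.33 and 0.818 on oil arrays. On single-dose arrays the ratios were 2.76, 2.77, 2.84 and 2.51 with TCE and 0.523, 0.826, 1.17 and 1.46 with oil. No TCE array reached down to an oil array, and the repeated-dose TCE arrays were the highest. Effects were 2.78 ± 0.28 after repeated doses (adjusted p = 0.000185) and 1.55 ± 0.28 after 1 dose (adjusted p = 0.0189), and the difference of 1.23 (95% interval 0.37 to 2.08) did not pass (adjusted p = 0.417).

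The wider NRF2 and glutathione lists moved by a few members. Of 13 measured NRF2 targets, 4 rose after repeated doses and 2 after 1 dose, and none fell, beside 2.34% and 1.16% of all genes higher. Their median effect was 0.68 after repeated doses and 0.61 after 1 dose, beside 0.04 and 0.12 over all genes. The 4 were Akr7a3, Gclm, Nqo1 and Me1. Nqo1, a quinone reductase, had ratios of 3.25, 3.17, 5.74 and 2.48 on repeated-dose TCE arrays, against 0.977, 1.12, 1.02 and 0.462 on oil arrays, and 0.930, 1.93, 4.21 and 3.38 on single-dose TCE arrays, against 1.04, 1.45, 0.961 and 0.482. Only the repeated-dose groups were apart, with effects of 2.04 ± 0.47 after repeated doses (adjusted p = 0.0323) and 1.30 ± 0.47 after 1 dose (adjusted p = 0.154); a second Nqo1 probe set gave -0.90 after repeated doses and 1.63 after 1 dose, neither past the threshold. Among 13 glutathione transferases Gsta3 was the single one to rise, and Gstt2, a theta-class transferase, the single one to fall, each under both schedules. Of all genes 0.718% were called under both. Gstt2 had 0.413, 0.480, 0.434 and 0.450 on repeated-dose TCE arrays, against 0.756, 1.02, 0.982 and 1.17 on their oil arrays, and 0.541, 0.460, 0.429 and 0.374 on single-dose TCE arrays, against 0.615, 1.06, 0.943 and 1.06 on theirs. It fell to a similar level on all 8 TCE arrays, with effects of -1.13 ± 0.20 after repeated doses and -1.01 ± 0.20 after 1 dose (adjusted p = 0.00981 and 0.0289), though its other probe set gave 0.13 after repeated doses and -0.21 after 1 dose. Cyp2e1, the main P450 for TCE, was named after its values were seen: its effects were 0.20 after repeated doses and -0.30 after 1 dose (adjusted p = 0.482 and 0.263), and all TCE arrays lay above oil after repeated doses and below it after 1 dose.

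Some proteasome subunits also rose under both schedules. The proteasome is the complex that degrades tagged proteins, built of a core of α and β rings and of regulatory caps. Of 24 measured subunits, the same 4 rose under both schedules (Psmd1, Psma2, Psma1 and Psma4) and none fell, beside 0.718% of all genes called under both, with median effects of 0.26 after repeated doses and 0.11 after 1 dose. Psmd1, a cap subunit, had 2.41, 2.74, 2.16 and 2.16 on repeated-dose TCE arrays, against 1.03, 1.08, 0.970 and 0.950 on oil arrays. Single-dose ratios were 2.22, 1.53, 1.62 and 2.31 with TCE and 1.07, 0.931, 0.622 and 1.11 with oil, so the groups were apart under both schedules. It rose by 1.23 ± 0.21 after repeated doses and 1.05 ± 0.21 after 1 dose (adjusted p = 0.00742 and 0.024), with a difference of 0.17 (-0.45 to 0.79). For Psma2, of the core's α ring, the ratios were 1.93, 2.24, 1.95 and 1.81 with repeated TCE, against 0.853, 1.24, 0.981 and 1.02 with oil, and 1.99, 1.63, 2.05 and 2.02 with 1 dose, against 1.19, 1.07, 0.930 and 0.757. TCE arrays lay at a like height under both schedules, and the effects were 0.96 ± 0.18 after repeated doses and 0.98 ± 0.18 after 1 dose (adjusted p = 0.00989 and 0.0181). Other probe sets of these genes were less even: 1 of Psmd1 gave 1.81 after repeated doses and -0.67 after 1 dose, and 1 of Psma1 gave -0.33 after repeated doses and 1.28 after 1 dose. Psmb8 and Psmb9, the immunoproteasome subunits, had effects of -0.86 and -0.76 after repeated doses and -0.32 and -0.54 after 1 dose, none past the threshold; they were named after their values were seen. Without the 3 arrays of high Gapdh value, only Psmd1 of the 4 passed after repeated doses, and none after 1 dose.

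A chaperone, a p53 target and a cyclin were also called under both schedules. Hspa13, an HSP70-family chaperone of microsomes, had ratios of 8.09, 8.62, 5.20 and 5.16 on repeated-dose TCE arrays, against 0.294, 2.28, 0.972 and 1.03 on oil arrays. After 1 dose they were 10.3, 8.56, 4.88 and 9.25 with TCE and 1.84, 1.34, 0.661 and 0.631 with oil. The TCE arrays lay above all oil arrays although the oil arrays themselves were spread widely. Hspa13 effects were 2.86 ± 0.52 after repeated doses and 2.98 ± 0.52 after 1 dose (adjusted p = 0.00981 and 0.0176). The difference was -0.12 ± 0.73, an SE too wide to bound the effects to within 2-fold of each other. Mdm2, the p53-induced ligase that degrades p53, had 1.78, 1.56, 1.92 and 1.81 with repeated TCE, against 0.773, 1.13, 1.20 and 0.869 with oil, and 1.73, 2.31, 1.81 and 1.64 with 1 dose of TCE, against 1.15, 0.692, 0.964 and 1.04. Its rises were 0.85 ± 0.20 after repeated doses and 0.97 ± 0.20 after 1 dose (adjusted p = 0.0371 and 0.0342), and of its 4 probe sets 1 passed under both schedules. Of 10 measured DNA damage genes and p53 targets, only Mdm2 was called under either schedule, beside 0.718% of all genes called under both. Effects of the 10 ran from -0.37 to 0.85 after repeated doses (median 0.12) and from -0.57 to 0.97 after 1 dose (median 0.31). The cell cycle gene Ccnd2, which encodes cyclin D2, had 2.16, 4.10, 2.21 and 2.21 on repeated-dose TCE arrays, against 0.940, 1.79, 1.03 and 0.966 on their oil arrays, and 1.64, 1.85, 2.03 and 3.03 on single-dose TCE arrays, against 1.01, 1.02, 0.987 and 0.703 on theirs. It rose by 1.17 ± 0.28 after repeated doses and 1.18 ± 0.28 after 1 dose (adjusted p = 0.0378 and 0.0479), while its other probe set gave -0.22 after repeated doses and 0.11 after 1 dose.

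Further genes raised under both schedules varied in role, and not all of the 28 are named here. Ipo7, a nuclear import receptor, rose by 1.57 ± 0.28 after repeated doses and 1.52 ± 0.28 after 1 dose. Gda, guanine deaminase, rose by 1.36 ± 0.25 after repeated doses and 1.37 ± 0.25 after 1 dose, and Amd1, which makes the aminopropyl donor of polyamines, by 1.30 ± 0.29 after repeated doses and 1.37 ± 0.29 after 1 dose. A further Gda probe set gave -0.50 after repeated doses and 1.19 after 1 dose. Rapgef4, an exchange factor switched on by cyclic AMP, rose by 1.42 ± 0.32 after repeated doses and 1.44 ± 0.32 after 1 dose, with repeated-dose TCE ratios of 2.47, 2.40, 2.39 and 2.46. The monocarboxylate carrier gene Slc16a7 rose by 1.22 ± 0.30 after repeated doses and 1.33 ± 0.30 after 1 dose, and Bbx, an HMG-box gene, by 1.52 ± 0.20 after repeated doses and 1.18 ± 0.20 after 1 dose. For these 6 genes, by the probe set of smallest spread, the estimated difference lay between -0.12 and 0.34, and no TCE array overlapped an oil array of its schedule.

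**Figure D2:**
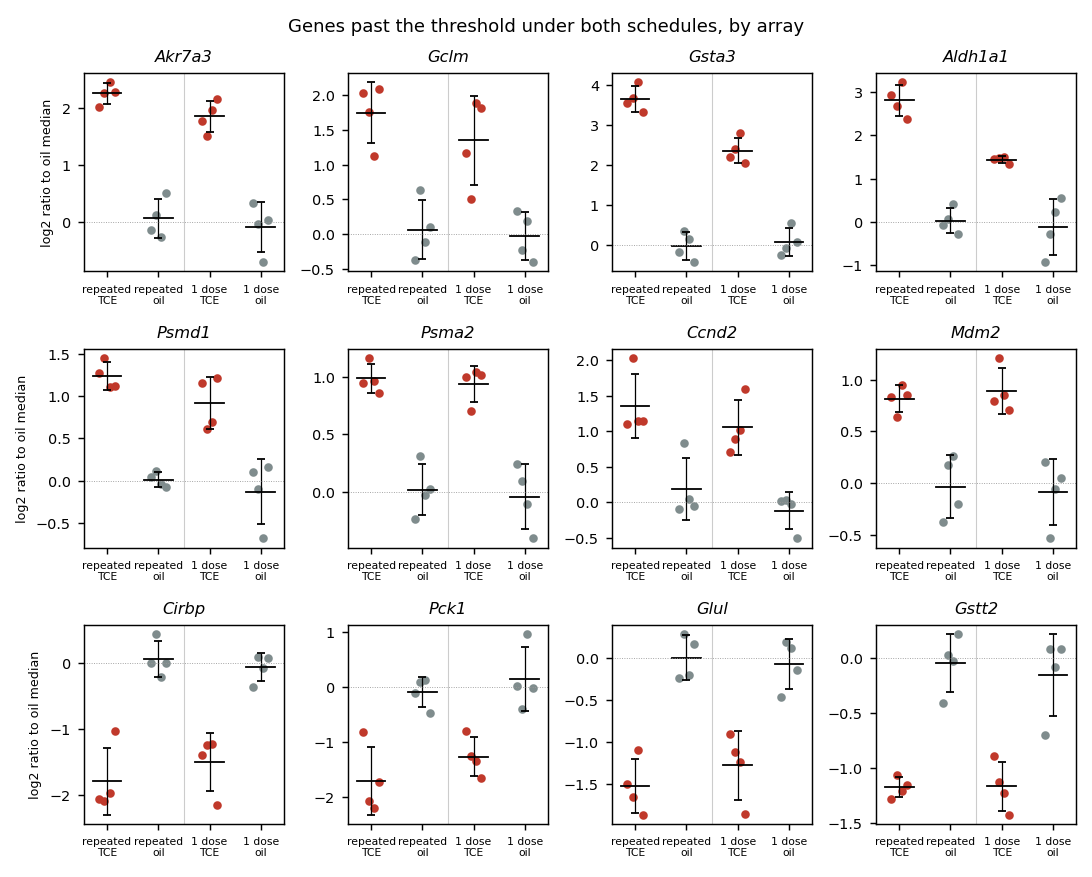
Log2 ratio to the oil median (vertical axis) on each array for 12 genes called under both schedules, with repeated-dose TCE, repeated-dose oil, single-dose TCE and single-dose oil from left to right. Points are arrays (4 a group), horizontal lines means and bars 1 SD. The TCE arrays stand clear of the oil arrays at about the same height under both schedules for most genes, and higher after repeated doses for Gsta3 and Aldh1a1.

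Of the 6 genes lowered under both schedules, several belong to hepatocyte metabolism. Pck1, the entry enzyme of gluconeogenesis, had ratios of 0.566, 0.240, 0.220 and 0.304 on repeated-dose TCE arrays, against 0.933, 1.07, 1.09 and 0.719 on oil arrays. After 1 dose the ratios were 0.575, 0.419, 0.393 and 0.319 with TCE and 1.01, 0.756, 1.95 and 0.992 with oil. All TCE arrays lay below all oil arrays of their schedule, and Pck1 fell, with log2 effects of -1.61 ± 0.33 after repeated doses and -1.40 ± 0.33 after 1 dose. Adjusted p-values were 0.0184 and 0.0479, and the highest single-dose oil value is that of oil 3, the array with pancreas transcripts. Without that array and those of high Gapdh value the effects were -1.35 after repeated doses and -1.0 after 1 dose (adjusted p = 0.0878 and 0.133).

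Glul, glutamine synthetase of the hepatocytes around the central vein, had 0.355, 0.318, 0.467 and 0.275 on repeated-dose TCE arrays, against 0.853, 1.23, 0.870 and 1.13 on oil arrays. Its single-dose ratios were 0.537, 0.460, 0.425 and 0.276 with TCE and 0.724, 1.15, 1.09 and 0.911 with oil. The groups were apart under both schedules, and the effects were -1.54 ± 0.24 after repeated doses (adjusted p = 0.00561) and -1.21 ± 0.24 after 1 dose (adjusted p = 0.028). All 4 Glul probe sets were below 0 under both schedules, from -2.17 to -0.90 after repeated doses and from -1.21 to -0.69 after 1 dose. Pemt, which makes phosphatidylcholine in hepatocytes, fell, with effects of -0.87 ± 0.19 after repeated doses and -0.83 ± 0.19 after 1 dose, with a difference of -0.05 (-0.61 to 0.52). Aph1a, a subunit of γ-secretase, fell, with effects of -1.05 ± 0.17 after repeated doses and -1.09 ± 0.17 after 1 dose. Cirbp, the cold-inducible RNA-binding protein, had 0.239, 0.233, 0.256 and 0.487 on repeated-dose TCE arrays, against 0.998, 1.35, 0.859 and 1.0 on their oil arrays, and 0.381, 0.421, 0.428 and 0.224 on single-dose TCE arrays, against 0.777, 1.06, 0.945 and 1.05 on theirs. It fell, with effects of -1.85 ± 0.27 after repeated doses and -1.44 ± 0.27 after 1 dose (adjusted p = 0.00314 and 0.0209), with repeated-dose TCE 4 the highest of the 4.

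Of the 61 shared probe sets, 36 had a 95% interval of the difference that lay wholly between -1 and 1. For those the data bound the schedules' effects to within 2-fold of each other. A wider search used the mean of both effects, which changed 855 probe sets (9.79%), and took the largest changes whose difference lay within that bound. Smc4, a condensin subunit that packs mitotic chromosomes, rose by 1.25 ± 0.16 in this mean, and Eif3m, a translation initiation subunit, by 1.18 ± 0.13. Tnfrsf1b, the second tumour necrosis factor receptor, fell by 1.07 ± 0.18, but its other probe set gave -0.03 after repeated doses and 0.17 after 1 dose. Slc6a13, a GABA and taurine carrier, fell by 0.90 ± 0.20. Further mean effects were -0.87 ± 0.19 for Cfp (properdin, of the alternative complement pathway), -0.85 ± 0.21 for the fatty acid binding protein Fabp5, -0.81 ± 0.14 for the P450 Cyp2f4, -0.78 ± 0.13 for the splicing kinase Clk3 and -0.76 ± 0.13 for the hepatocyte exporter Abcc6. Differences between the schedules for these 9 genes ran from -0.38 to 0.31.

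Among fatty acid genes called after repeated doses, the estimated effect was mostly larger than after 1 dose, but none passed the test of the difference over all probe sets. Choosing genes by their repeated-dose call favours that order, which held for 127 of all 143 genes called after repeated doses. Acaa1b, a peroxisomal thiolase that performs the last step of β-oxidation, had ratios of 6.96, 10.8, 12.4 and 13.8 on repeated-dose TCE arrays, against 1.14, 0.737, 0.861 and 1.57 on oil arrays. After 1 dose they were 2.22, 1.86, 1.73 and 2.69 with TCE and 1.31, 0.932, 1.07 and 0.616 with oil. The lowest repeated-dose TCE array was above the highest single-dose one by more than 2-fold, and neither schedule's TCE arrays overlapped its oil arrays. Acaa1b rose by 3.37 ± 0.30 after repeated doses (adjusted p = 3.46e-05), and its single-dose effect was 1.15 ± 0.30 (adjusted p = 0.0637). The difference was 2.22 with a 95% interval of 1.33 to 3.11 (adjusted p = 0.22). With the noisiest 40% of probe sets left out it passed, at an adjusted p of 0.0136, and likewise on the log2(ratio + 1) scale, at 0.0303.

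Of 14 measured genes of peroxisomal fatty acid oxidation, 4 rose after repeated doses and none after 1 dose, beside 2.34% and 1.16% of all genes, and none fell. The same 4, Acaa1b, Pex11a, Ech1 and Ehhadh, had differences at an unadjusted p under 0.05, beside 4.39% of all genes with such a difference upward. Pex11a, which drives peroxisome division, had 4.04, 3.61, 3.90 and 5.0 on repeated-dose TCE arrays, against 1.63, 1.04, 0.956 and 0.956 on oil arrays. Single-dose ratios were 2.06, 1.70, 1.63 and 1.81 with TCE and 0.902, 0.974, 1.28 and 1.03 with oil. All TCE arrays were above the oil arrays under both schedules, and the repeated-dose ones were the higher. Effects were 1.88 ± 0.20 after repeated doses (adjusted p = 0.00023) and 0.79 ± 0.20 after 1 dose (adjusted p = 0.0607), a difference of 1.09 (0.49 to 1.69); a second probe set gave 0.08 after repeated doses and 0.36 after 1 dose.

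Ehhadh, the bifunctional enzyme of the middle steps, had 2.72, 3.67, 3.05 and 1.99 with repeated TCE, against 0.902, 1.26, 1.10 and 0.796 with oil. With 1 dose it had 0.496, 0.988, 1.10 and 1.16, against 0.551, 1.14, 0.953 and 1.05 with oil. It was raised on all 4 repeated-dose TCE arrays and sat among the oil values after 1 dose, with effects of 1.48 ± 0.31 after repeated doses (adjusted p = 0.0186) and 0.00 ± 0.31 after 1 dose and a difference of 1.48 (0.56 to 2.40). Ech1, a dienoyl-CoA isomerase, had 1.98, 3.71, 4.43 and 3.58 on repeated-dose TCE arrays, against 1.24, 0.761, 0.720 and 1.35 on their oil arrays, and 1.42, 1.21, 1.33 and 1.73 on single-dose TCE arrays, against 0.755, 0.988, 1.45 and 1.01 on theirs. It rose by 1.75 ± 0.29 after repeated doses (adjusted p = 0.00662), beside 0.46 ± 0.29 after 1 dose. The other members did not follow as a block: the list's median effect was 0.49 after repeated doses and 0.23 after 1 dose, and 8 of 14 members were higher after repeated doses. Catalase (Cat), named after its values were seen, had effects of -0.01 after repeated doses and 0.27 after 1 dose.

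In mitochondria, 3 of 21 fatty acid oxidation genes rose after repeated doses and none fell, while 1 dose raised none and lowered 2. Over all genes 2.34% were higher after repeated doses and 0.528% lower after 1 dose. Eci1, an enoyl-CoA isomerase, had 2.45, 3.35, 3.47 and 3.55 on repeated-dose TCE arrays, against 1.17, 0.923, 1.08 and 0.866 on oil arrays. After 1 dose it had 1.68, 0.992, 1.38 and 1.49 with TCE and 0.988, 1.01, 1.30 and 0.838 with oil, and those groups overlapped. Its effects were 1.66 ± 0.21 after repeated doses (adjusted p = 0.000708) and 0.41 ± 0.21 after 1 dose, a difference of 1.25 (0.63 to 1.87). A further Eci1 probe set did not follow, at 0.35 after repeated doses and 0.18 after 1 dose. Cpt2, the inner-membrane carnitine palmitoyltransferase, had 2.63, 2.23, 2.58 and 2.53 with repeated TCE, against 1.14, 0.858, 0.758 and 1.47 with oil, and 1.06, 1.09, 0.901 and 1.39 with 1 dose, against 0.980, 1.14, 0.840 and 1.02. It was above every oil array after repeated doses and level with oil after 1 dose, at 1.28 ± 0.21 after repeated doses (adjusted p = 0.00662) and 0.15 ± 0.21 after 1 dose. Decr1, a dienoyl-CoA reductase, had 1.84, 2.38, 2.06 and 2.21 on repeated-dose TCE arrays, against 0.771, 1.21, 0.911 and 1.09 on their oil arrays, and 0.829, 0.643, 0.915 and 1.34 on single-dose TCE arrays, against 0.600, 0.994, 1.08 and 1.01 on theirs. Its effect was 1.11 ± 0.25 after repeated doses (adjusted p = 0.0265) and 0.00 ± 0.25 after 1 dose.

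The 2 members lowered by 1 dose were Acads, the short-chain acyl-CoA dehydrogenase, with an effect of -0.16 ± 0.24 after repeated doses and -1.02 ± 0.24 after 1 dose (adjusted p = 0.0471 for that), and Ivd, isovaleryl-CoA dehydrogenase of leucine breakdown, with 0.00 after repeated doses and -0.66 after 1 dose (adjusted p = 0.0465 for that). Of all 21 members 17 were higher after repeated doses than after 1 dose, with median effects of 0.21 after repeated doses and 0.00 after 1 dose and a median difference of 0.45, beside -0.04 over all genes. Cpt1a, the enzyme that admits fatty acids to mitochondria, was named after its values were seen and had effects of 0.74 after repeated doses and 0.44 after 1 dose (adjusted p = 0.204 and 0.46).

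The list of microsomal ω-oxidation and acyl-CoA thioesterase genes, 6 measured, had a median effect of 1.10 after repeated doses and 0.30 after 1 dose. After repeated doses 2 rose and 1 fell, beside 2.34% of all genes higher and 0.676% lower, and after 1 dose none passed. Cyp4a1, a fatty acid ω-hydroxylase, had 2.02, 3.24, 1.90 and 3.29 on repeated-dose TCE arrays, against 0.880, 1.33, 0.893 and 1.11 on oil arrays. With 1 dose it had 0.691, 1.04, 1.62 and 1.33 on TCE arrays and 0.739, 1.06, 1.11 and 0.938 on oil arrays, which overlapped. Effects were 1.29 ± 0.28 after repeated doses (adjusted p = 0.0233) and 0.23 ± 0.28 after 1 dose, and all 3 Cyp4a1 probe sets passed after repeated doses, at 1.29 to 1.84. Aldh3a2, a fatty aldehyde dehydrogenase, had 1.94, 1.94, 2.01 and 1.78 on repeated-dose TCE arrays, against 1.10, 1.06, 0.735 and 0.937 on their oil arrays, and rose by 1.02 ± 0.20 (adjusted p = 0.0157), beside 0.22 ± 0.20 after 1 dose. Its other 2 probe sets did not follow, at 0.01 and -2.16 after repeated doses. Cyp4a8, a relative found in this list, went the other way: 0.622, 0.434, 0.436 and 0.454 with repeated TCE, against 0.692, 1.49, 0.862 and 1.14 with oil, and 0.837, 1.04, 0.936 and 1.20 with 1 dose, against 1.40, 0.856, 1.14 and 0.711. It fell by 1.06 ± 0.26 after repeated doses (adjusted p = 0.0441), beside 0.00 ± 0.26 after 1 dose. Cyp4a genes are close paralogs, and probe sets may share their transcripts. The thioesterase Acot1, named after its values were seen, had effects of 2.22 after repeated doses and 0.78 after 1 dose (adjusted p = 0.0804 and 0.549).

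**Figure D3:**
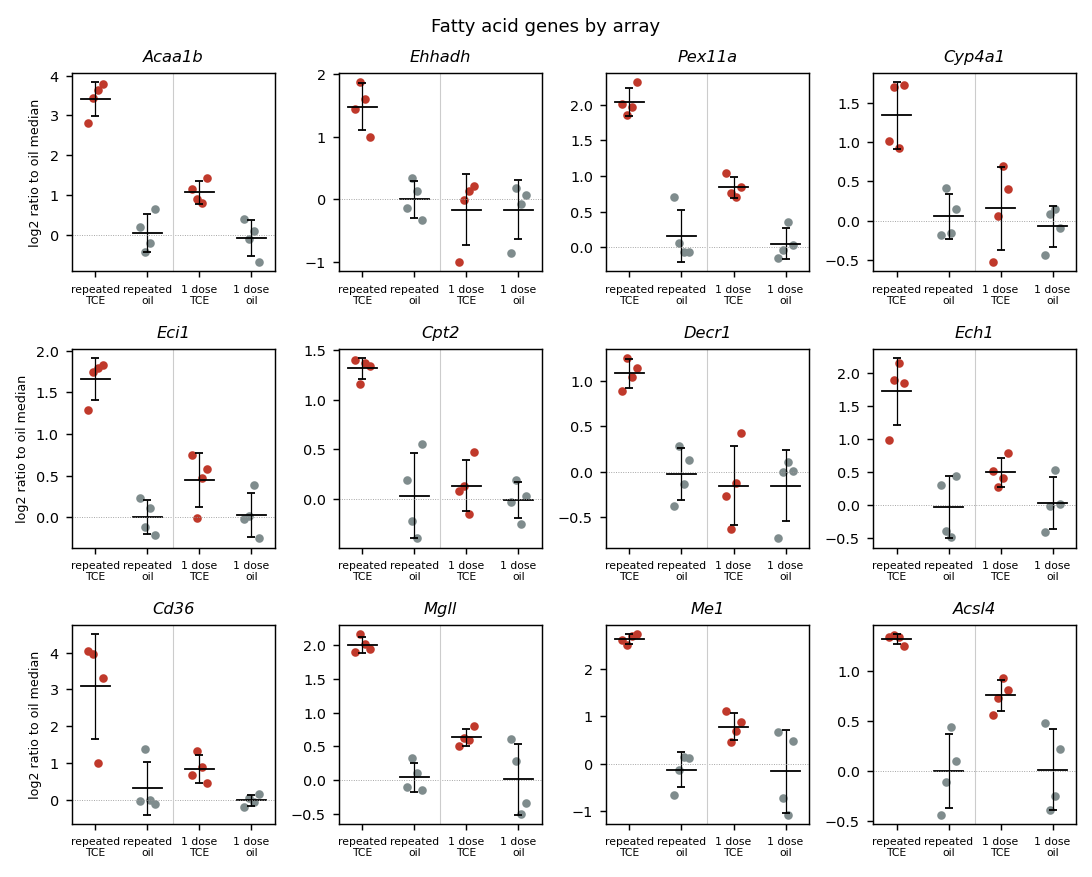
Log2 ratio to the oil median (vertical axis) on each array for 12 fatty acid genes that rose after repeated doses, with repeated-dose TCE, repeated-dose oil, single-dose TCE and single-dose oil from left to right. Points are arrays (4 a group), horizontal lines means and bars 1 SD. Genes were chosen for that rise, and the called fallers Cyp4a8 and Apoa4 are not drawn; repeated-dose TCE 3 is low for Cd36.

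Lipid uptake and handling had 4 risers and 1 faller among 19 measured genes after repeated doses, beside 2.34% higher and 0.676% lower of all genes, and none of either after 1 dose. Mgll, the lipase that completes triglyceride breakdown, had 3.73, 4.51, 4.06 and 3.87 on repeated-dose TCE arrays, against 0.926, 1.25, 1.07 and 0.900 on oil arrays. After 1 dose it had 1.42, 1.55, 1.51 and 1.75 with TCE and 1.53, 1.21, 0.705 and 0.788 with oil. The repeated-dose TCE arrays stood far above the rest, while the single-dose groups overlapped, and effects were 1.97 ± 0.22 after repeated doses (adjusted p = 0.000412) and 0.62 ± 0.22 after 1 dose with a difference of 1.35 (0.67 to 2.02). Cd36, a fatty acid receptor and carrier, had 16.4, 15.7, 1.99 and 10.0 with repeated TCE and 0.989, 2.59, 1.01 and 0.927 with oil, so 1 TCE array fell below the highest oil array. Its single-dose ratios were 1.61, 2.52, 1.85 and 1.38 with TCE and 0.882, 1.03, 0.966 and 1.13 with oil, which did not overlap. Effects were 2.76 ± 0.54 after repeated doses (adjusted p = 0.0145) and 0.84 ± 0.54 after 1 dose, and a second probe set gave 0.24 after repeated doses and 0.98 after 1 dose. Without the arrays that stood apart, the low TCE array among them, the repeated-dose effect was 3.69. Acsl4, which activates long fatty acids, rose by 1.33 ± 0.22 (adjusted p = 0.00662), beside 0.75 ± 0.22 after 1 dose. A further Acsl4 probe set gave 1.27 after repeated doses and 2.02 after 1 dose, neither past the threshold. The related gene Acsl1 rose by 0.71 (adjusted p = 0.028), beside 0.31 after 1 dose. Apoa4, an apolipoprotein, fell by 1.52 ± 0.32 (adjusted p = 0.0199), beside -0.65 ± 0.32 after 1 dose.

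Me1, malic enzyme, which makes NADPH and is listed with fatty acid synthesis and NRF2 targets, had 6.11, 5.66, 6.51 and 6.64 on repeated-dose TCE arrays, against 0.634, 0.916, 1.10 and 1.08 on oil arrays. Single-dose ratios were 2.16, 1.36, 1.61 and 1.85 with TCE and 1.58, 0.601, 0.475 and 1.40 with oil. The repeated-dose TCE arrays were tightly grouped and far above all others, while the single-dose groups overlapped. Effects were 2.77 ± 0.34 after repeated doses (adjusted p = 0.000683) and 0.95 ± 0.34 after 1 dose (adjusted p = 0.15), a difference of 1.82 (0.79 to 2.84; adjusted p = 0.384), and 4 of its 5 probe sets passed after repeated doses. The other 10 measured genes of fatty acid synthesis, Fasn and Acaca among them, did not pass under either schedule.

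Some of these lipid calls were lost without the arrays of high Gapdh value, of which the repeated-dose TCE group held 2. Over all probe sets, repeated-dose calls then went from 251 to 133. Whether a lost call reflects those arrays or the smaller number of arrays was not tested. Without the 3 arrays, 2 of the 4 peroxisomal genes, 2 of the 3 mitochondrial genes and none of the ω-oxidation and thioesterase genes still passed. The list medians were then 0.68, 0.17 and 1.17 after repeated doses, beside 0.22, 0.03 and 0.21 after 1 dose. With all arrays the repeated-dose medians were 0.49, 0.21 and 1.10. For Acaa1b the difference was 2.05 without these arrays, for Ehhadh 1.79 and for Eci1 1.15.

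**Figure D4:**
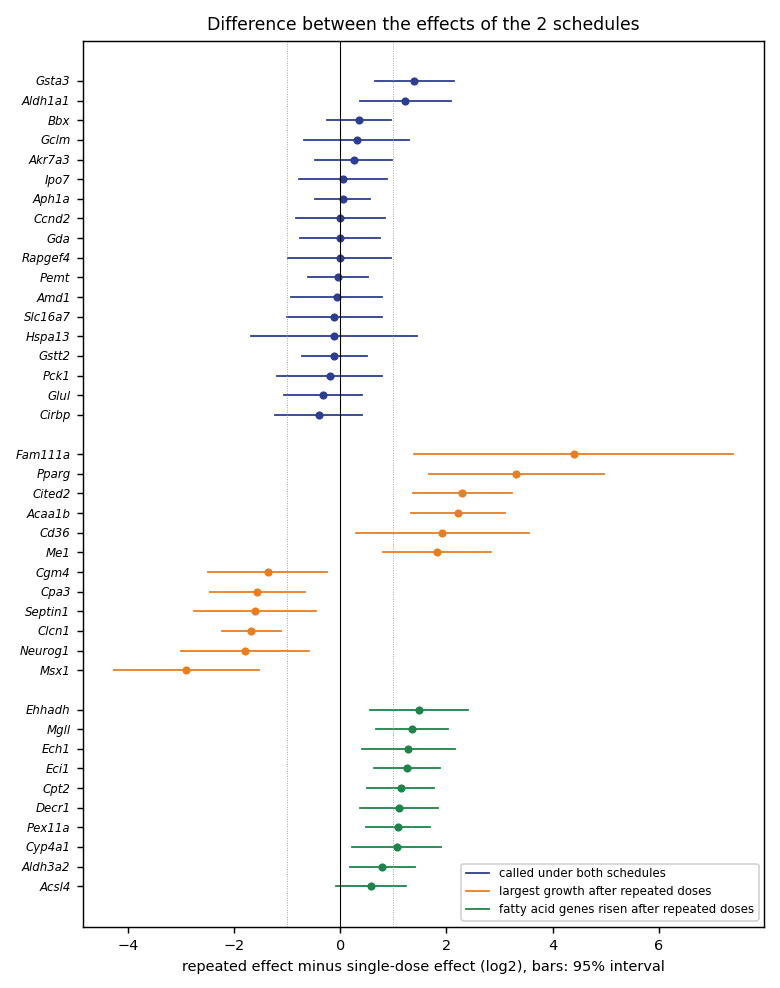
Repeated-dose effect minus single-dose effect (horizontal axis, log2) with its 95% interval for genes called under both schedules (blue), genes with the largest estimated growth among repeated-dose calls (orange) and other named fatty acid genes that rose after repeated doses (green). Dotted lines mark -1 and 1. Blue intervals span 0 except those of Gsta3 and Aldh1a1, orange genes were chosen for their differences, and among green genes the interval of Acsl4 spans 0; no difference passed after adjustment.

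In all, 46 genes, lipid genes included, were called after repeated doses with a difference of the same sign at an unadjusted p under 0.05, 36 upward and 10 downward. The calls after repeated doses entered this choice, so that larger effects there follow in part from it: 127 of the 143 genes called after repeated doses had the larger effect in size then, and 61 of the 80 called after 1 dose had it after 1 dose. Cited2, a transcriptional co-regulator that binds CBP and p300, had 4.55, 4.95, 3.45 and 3.44 on repeated-dose TCE arrays, against 1.42, 1.03, 0.850 and 0.969 on oil arrays. After 1 dose it had 0.593, 0.433, 0.913 and 1.41 with TCE and 1.12, 1.11, 0.789 and 0.892 with oil. It was raised on all 4 repeated-dose TCE arrays and mixed among the oil values after 1 dose. Effects were 1.95 ± 0.31 after repeated doses (adjusted p = 0.00561) and -0.35 ± 0.31 after 1 dose, a difference of 2.30 (1.37 to 3.23; adjusted p = 0.22), and its 3 probe sets had differences of 0.96 to 2.30.

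Pparg, the nuclear receptor of fat storage, had 4.73, 6.31, 5.40 and 8.08 with repeated TCE, against 1.04, 2.11, 0.963 and 0.917 with oil. With 1 dose it had 0.209, 0.263, 0.833 and 1.61, against 0.667, 1.23, 1.69 and 0.772 with oil. Repeated-dose TCE arrays were all above their oil arrays, while single-dose TCE arrays spread across the oil range, with 2 below it. Effects were 2.35 ± 0.55 after repeated doses (adjusted p = 0.0338) and -0.96 ± 0.55 after 1 dose, a difference of 3.31 (1.67 to 4.96). The call was lost with the Gapdh value as a covariate, at 1.67 (adjusted p = 0.196). Of the 7 adipose markers measured, of which Pparg is 1, no other passed.

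Fam111a, a nuclear protease, had 86.1, 52.0, 38.6 and 38.0 on repeated-dose TCE arrays, against 0.481, 2.67, 1.52 and 0.419 on oil arrays. Its single-dose values were 6.16, 6.38, 1.79 and 0.250 with TCE and 2.65, 0.182, 1.30 and 0.700 with oil. The oil arrays themselves spread more than 5-fold, and the single-dose groups overlapped. Effects were 5.73 ± 1.0 after repeated doses (adjusted p = 0.00848) and 1.33 ± 1.0 after 1 dose, and the interval of the difference was wide, at 1.39 to 7.41. Klf6, an early-response transcription factor, had 4.15, 4.74, 4.88 and 3.06 with repeated TCE, against 0.694, 1.20, 1.18 and 0.818 with oil. After 1 dose it had 0.681, 0.705, 3.69 and 3.49, of which 2 arrays were raised and 2 were not, against 0.769, 1.03, 1.76 and 0.966. It rose by 2.13 ± 0.51 after repeated doses (adjusted p = 0.0402), beside 0.55 ± 0.51 after 1 dose. Of 15 immediate early genes measured, Klf6 was the only one called under either schedule, beside 2.34% of all genes higher after repeated doses. Their median effect was -0.13 after repeated doses and 0.08 after 1 dose, and 4 of the 15 were higher after repeated doses.

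Downward calls after repeated doses with a larger estimate than after 1 dose included genes best known from other tissues. Clcn1, the chloride channel of skeletal muscle, had the smallest p of any difference. Its ratios were 0.733, 0.473, 0.439 and 0.549 on repeated-dose TCE arrays and 0.955, 0.918, 1.13 and 1.04 on oil arrays, but 1.84, 1.73, 1.82 and 1.63 on single-dose TCE arrays and 1.32, 0.987, 1.01 and 0.848 on oil arrays. It lay below oil under 1 schedule and above oil under the other, without overlap in either. Effects were -0.91 ± 0.19 after repeated doses (adjusted p = 0.0184) and 0.77 ± 0.19 after 1 dose (adjusted p = 0.0529), a difference of -1.68 (-2.24 to -1.11; adjusted p = 0.127). Genes with groups apart in opposite directions, Cyp2e1 included, numbered 5 of 4736 (0.106%).

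Msx1 and Neurog1, transcription factors known from the embryo, were lower after repeated doses. Msx1 had effects of -2.22 ± 0.45 after repeated doses and 0.69 ± 0.45 after 1 dose, the latter upward. Neurog1 had effects of -2.13 ± 0.40 after repeated doses and -0.33 ± 0.40 after 1 dose. Cpa3, a protease of mast cells, had 0.206, 0.526, 0.403 and 0.416 on repeated-dose TCE arrays, against 0.905, 1.05, 1.48 and 0.952 on their oil arrays. Its effects were -1.55 ± 0.30 after repeated doses (adjusted p = 0.0127) and 0.02 ± 0.30 after 1 dose. Septin1, a cytoskeletal GTPase, had effects of -1.53 ± 0.38 after repeated doses and 0.07 ± 0.38 after 1 dose. Cgm4, a gene of the carcinoembryonic antigen family, had effects of -1.58 ± 0.37 after repeated doses and -0.20 ± 0.37 after 1 dose. A second Cgm4 probe set gave 0.64 after repeated doses and -0.11 after 1 dose. The ratios do not show whether these genes were above background in liver.

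A single dose changed some genes whose repeated-dose effect was small. Under the matching rule, 24 genes called after 1 dose had a difference against their single-dose sign at an unadjusted p under 0.05, of which 11 were higher and 13 lower after 1 dose. Over all genes 4.39% had such a difference upward and 5.24% downward. F10, coagulation factor X, had 1.02, 0.806, 1.04 and 0.919 on repeated-dose TCE arrays, against 0.981, 0.990, 1.01 and 1.04 on oil arrays, which overlapped. With 1 dose it had 0.417, 0.437, 0.558 and 0.564 on TCE arrays and 1.10, 1.08, 0.693 and 0.921 on oil arrays. Only the single-dose groups were apart, and the effects were -0.10 ± 0.18 after repeated doses and -0.93 ± 0.18 after 1 dose (adjusted p = 0.0231 for 1 dose), a difference of 0.84 (0.29 to 1.38).

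Mpv17l, of the Mpv17 family of peroxisomal and mitochondrial membrane proteins, had 1.29, 0.761, 1.12 and 0.812 on repeated-dose TCE arrays, against 1.04, 0.900, 0.960 and 1.38 on their oil arrays, and 0.388, 0.317, 0.442 and 0.523 on single-dose TCE arrays, against 0.934, 1.04, 0.961 and 1.90 on theirs. Its effect was -0.12 ± 0.26 after repeated doses, and it fell by 1.49 ± 0.26 after 1 dose (adjusted p = 0.0181). Slc37a4, the glucose-6-phosphate carrier of glucose release, had an effect of -0.48 ± 0.17 after repeated doses (adjusted p = 0.136) and fell by 1.02 ± 0.17 after 1 dose (adjusted p = 0.0154). Emc8, of an endoplasmic reticulum insertion complex, had an effect of 0.17 ± 0.29 after repeated doses and fell by 1.23 ± 0.29 after 1 dose. Alkbh7, a mitochondrial dioxygenase, had -0.21 ± 0.33 after repeated doses and fell by 1.39 ± 0.33 after 1 dose.

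Other genes rose after 1 dose. Epha3, an ephrin receptor, had 1.13, 1.37, 1.63 and 1.23 with repeated TCE, against 0.439, 1.56, 2.12 and 0.267 with oil, and 9.19, 12.9, 6.10 and 7.84 with 1 dose of TCE, against 1.13, 0.872, 1.56 and 0.785 with oil. Its effect was 0.75 ± 0.52 after repeated doses, and it rose by 3.05 ± 0.52 after 1 dose (adjusted p = 0.017). Calb1, a calcium-binding protein, had 0.732, 0.552, 0.668 and 0.160 on repeated-dose TCE arrays, against 0.905, 1.09, 0.731 and 1.88 on their oil arrays, and 5.88, 2.40, 5.26 and 8.05 on single-dose TCE arrays, against 1.72, 0.725, 0.890 and 1.11 on theirs. Its effect was -1.24 ± 0.49 after repeated doses (adjusted p = 0.185), and it rose by 2.23 ± 0.49 after 1 dose (adjusted p = 0.0414). Thoc2, of the mRNA export complex THO, had an effect of 1.16 ± 0.88 after repeated doses and rose by 4.12 ± 0.88 after 1 dose, with single-dose TCE ratios of 40.8, 48.2, 22.5 and 3.22, of which the lowest was on the array of high Gapdh value. Tspy1, a gene of the testis, had an effect of -0.58 ± 0.54 after repeated doses and rose by 2.29 ± 0.54 after 1 dose, while its second probe set gave -1.90 after repeated doses and 0.27 after 1 dose. None of these differences passed after adjustment, the smallest adjusted p being 0.258 for Calb1.

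Lists of amino acid, energy and protein synthesis genes held few calls under either schedule taken alone. Of 30 genes of amino acid breakdown and the urea cycle, 1 fell after repeated doses and 2 after 1 dose, beside 0.676% and 0.528% of all genes lower. Glul fell under both schedules, and the second gene after 1 dose was Bckdha, a branched-chain keto acid dehydrogenase subunit, whose effects were -0.45 ± 0.22 after repeated doses and -0.95 ± 0.22 after 1 dose (adjusted p = 0.277 and 0.0466). The median effect of the 30 was -0.08 after repeated doses and -0.30 after 1 dose, and 25 were higher after repeated doses. With arrays centred on their medians, 6 of the 30 fell after 1 dose. In the mean of both schedules, without that centring, 6 of the 30 fell and none rose, beside 3.02% of all genes lower. The 23 respiratory chain subunits had medians of 0.17 after repeated doses and -0.25 after 1 dose with no call under either schedule. The 35 ribosomal proteins had medians of 0.12 after repeated doses and -0.02 after 1 dose. Of them 1 was called, Rpl4, at 0.92 ± 0.23 after repeated doses, beside 2.34% of all genes higher. The 13 cholesterol synthesis genes had medians of -0.23 after repeated doses and -0.48 after 1 dose with no call.

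**Figure D5:**
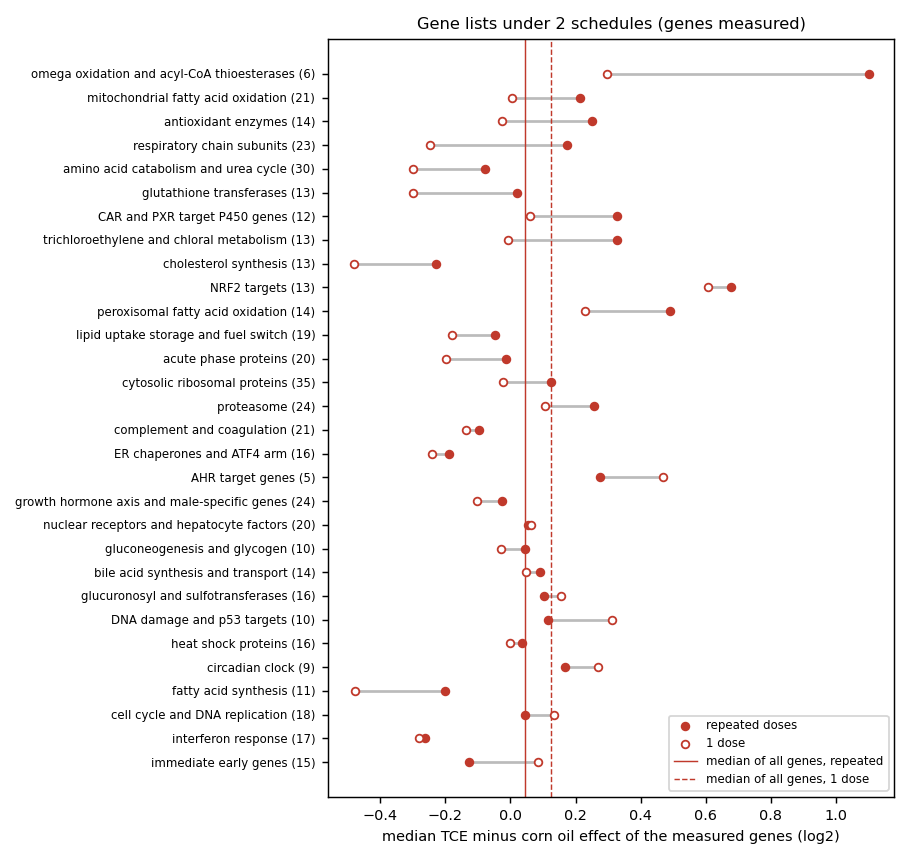
Median log2 effect of TCE over the measured genes of 30 lists (number measured in brackets), after repeated doses (filled) and after 1 dose (open), ordered by the median difference. Vertical lines mark the medians over all genes, 0.04 after repeated doses and 0.12 after 1 dose; the list of ω-oxidation and thioesterase genes stands at 1.10 after repeated doses.

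Of 21 complement and coagulation genes, 1 fell under each schedule, Plg after repeated doses and F10 after 1 dose, beside 0.676% and 0.528% of all genes lower. Plg, plasminogen, had 0.353, 0.124, 0.0341 and 0.139 on repeated-dose TCE arrays, against 0.994, 1.19, 1.01 and 0.847 on oil arrays, and 0.629, 0.783, 0.327 and 0.0957 on single-dose TCE arrays, against 0.970, 1.12, 0.981 and 1.02. Its lowest values were on repeated-dose TCE 3 and single-dose TCE 4, both arrays of high Gapdh value. Effects were -3.06 ± 0.64 after repeated doses (adjusted p = 0.0195) and -1.53 ± 0.64 after 1 dose (adjusted p = 0.207), and -2.26 (adjusted p = 0.036) after repeated doses without the arrays that stood apart. No member of the acute phase, heat shock, endoplasmic reticulum chaperone, bile acid or CAR and PXR target lists was called under either schedule. Cyp2b2, a CAR target, had effects of 1.42 ± 0.45 after repeated doses and 1.33 ± 0.45 after 1 dose (adjusted p = 0.0956 and 0.128).

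Few markers of other liver cells passed, and in bulk tissue fewer cells of a type and less RNA per cell cannot be told apart. No Kupffer cell marker of 10 passed under either schedule, but 4 fell in the mean of both, beside 3.02% of all genes. Their median log2 ratio averaged -0.15 ± 0.14 (SD) on repeated-dose TCE arrays, against 0.03 ± 0.17 on oil arrays, and -0.26 ± 0.36 on single-dose TCE arrays, against 0.01 ± 0.27 on oil arrays. Exact permutation tests gave p = 0.2 after repeated doses and p = 0.286 after 1 dose. Effects of the 10 ran from -0.84 to 0.69 after repeated doses (median -0.08) and from -1.05 to 0.47 after 1 dose (median -0.16), so some members were higher with TCE. Clec4f, the Kupffer cell lectin, had a mean effect of -0.80 ± 0.22 and the complement gene C1qb one of -0.71 ± 0.15. Pecam1, an endothelial adhesion gene, had 0.422, 0.325, 0.377 and 0.341 with repeated TCE, against 0.891, 1.23, 1.11 and 0.757 with oil, and fell by 1.43 ± 0.26 (adjusted p = 0.00989), beside -0.36 ± 0.26 after 1 dose. Lyve1, of sinusoidal endothelium, rose by 1.13 ± 0.22 (adjusted p = 0.0127), beside 0.47 ± 0.22 after 1 dose, so that endothelial markers did not move together. Of 15 stellate cell and matrix markers 1 rose after repeated doses, beside 2.34% of all genes higher, and the list's median effect was 0.05. It was Sparc, a matrix gene, which rose by 1.21 ± 0.25 (adjusted p = 0.0182), beside 0.17 ± 0.25 after 1 dose. The other 3 Sparc probe sets, at 0.25 to 0.96, did not pass. Of 12 lymphocyte and plasma cell markers 1 fell after 1 dose, beside 0.528% of all genes lower, and none passed after repeated doses. It was Cd37, of B cells, with effects of -0.67 ± 0.30 after repeated doses and -1.29 ± 0.30 after 1 dose (adjusted p = 0.0469 for 1 dose). The median effect of the 12 was -0.36 after repeated doses and 0.23 after 1 dose. The part of cell composition in the other results was not tested.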

How the data were processed

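RNA of 16 rat liver samples was read on Affymetrix arrays of 8799 probe sets, one sample an array. Signals were made with MAS5, per the submitters' processing notes, which give no version. The deposited values are ratios: in each schedule the median of the 4 oil arrays was within 0.001 of 1 for 100% of probe sets, so the values stand relative to that median; this was found from the values, and the labels used here do not describe the division. Brightness and background cannot be seen, and precision is limited by the 4 arrays a group.

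Control (59) and incomplete (8) probe sets were left out, and the other 8732 were fitted as log2 ratios with lmFit and eBayes of limma 3.58.1 (R 4.3.3) as 4 group means over all 16 arrays, with Benjamini-Hochberg adjustment and 95% intervals. Symbols came from the platform annotation, which can be old: 7000 probe sets had 1 symbol, 308 several and 1424 none. Effects on the array measures were tested by exact two-sided permutation (scipy 1.17.1), and the fit was tested on simulated data. No 2 arrays of a group were duplicates.

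Named genes were up to 12 a direction called under both schedules, by the smaller effect, up to 6 a direction with the largest differences among repeated-dose calls and 4 among single-dose calls, up to 10 a direction with the largest mean effects whose difference was bounded within -1 to 1, and up to 4 called members (or 2 others) of each list. The members, lists and tests were chosen with earlier results of these data known. Alternatives varied scaling, the log2 offset of 1, array weights, a replicate block, the Gapdh value, the noisiest 40% of probe sets, probe sets averaged per gene and each array left out in turn, and 1 was chosen after seeing the data (without single-dose oil 3 and 3 arrays of high Gapdh value).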

Additional observations from a re-analysis of the deposited data

Results flagged for a closer look

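Single arrays far from the other 3 of their group were found for 31 of 432 groups over 108 named genes (values are log2 ratios to the oil median). Chance flags about 1 array in 20. That rate is per array and each group holds 4, so the count of groups is not to be read against it. Exocrine pancreas transcripts on single-dose oil 3 were the most distant: 9.35 for Prss1, 4.91 for the ribonuclease Rnase1 and 4.08 for the median of all pancreas markers. Prss1 was also flagged on repeated-dose oil 2, at 0.45, where the median of all pancreas markers was -0.09. Its ratio there, 1.37, was below the 1.42 of repeated-dose TCE 1. On single-dose TCE 4 the β-actin 3′ minus 5′ value was high at 0.99 and the array's median log2 ratio was low at 0.057.

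Among genes that carry results above, several repeated-dose arrays stood apart. Repeated-dose TCE 4 gave -1.04 for Cirbp, 1.25 for Acsl4 and 2.09 for Thoc2. Repeated-dose TCE 2 gave 2.04 for Ccnd2, -0.41 for Alkbh7 and 0.22 for the metallothionein Mt3. Repeated-dose TCE 1 gave 1.29 for Eci1, -0.69 for Cyp4a8 and 0.20 for Emc8. Repeated-dose oil 2 gave 1.37 for Cd36, 1.08 for Pparg and 0.84 for Ccnd2. Repeated-dose oil 1 gave 0.71 for Pex11a, and repeated-dose oil 4 gave -1.11 for Nqo1.

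Of the single-dose arrays, TCE 4 gave -1.71 for Clec4f, -1.62 for Fabp5 and -0.69 for Septin1. Single-dose TCE 1 gave -1.57 for Tnfrsf1b, TCE 2 gave 0.70 for Psma2 and TCE 3 gave -0.49 for Acads. Single-dose oil 4 gave 0.92 for Mpv17l, -0.51 for Ccnd2, 0.40 for the sterol gene Msmo1 and -0.34 for the co-chaperone St13. Single-dose oil 1 gave -2.50 for Cyp2c12 and -0.74 for Decr1, oil 2 gave -1.70 for Neurog1 and oil 3 gave -0.60 for the sterol gene Dhcr7.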

How the results depend on the processing

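Counts of called probe sets moved with most settings, while the direction of named genes held except for Aldh3a2, which with the mean of its probe sets was -0.38 after repeated doses and -1.02 in the difference (adjusted p = 0.713 and 0.611). Against 251 calls after repeated doses, 150 after 1 dose, 61 under both, 855 in the mean and 0 in the difference, quantile normalization gave 7, 2, 2, 58 and 0. The log2(ratio + 1) scale gave 393 after repeated doses, 233 after 1 dose and 6 in the difference (Acaa1b, Cited2, Clcn1, Me1, Mgll and Grin3a). Array weights gave 434 after repeated doses, 416 after 1 dose and 113 under both. The Gapdh value as a covariate gave 72, 256 and 31 for the same 3 counts, and leaving out the 3 arrays of high Gapdh value gave 133, 29 and 11, with 562 in the mean and 1 in the difference. Without these and single-dose oil 3 the counts were 96, 5 and 3, with 544 in the mean. Leaving out the noisiest 40% of probe sets gave 521, 442 and 140, with 5 in the difference, Acaa1b, Cited2 and Clcn1 among them. Fitting each schedule's 8 arrays alone gave 106 after repeated doses and 69 after 1 dose. The cause of these moves was not tested. The correlation of effects, 0.357, was 0.464 with the Gapdh covariate, 0.444 without the noisiest probe sets and 0.295 without single-dose oil 3 and the high Gapdh arrays.

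Leaving out 1 array at a time gave 100 to 316 calls after repeated doses, 22 to 221 after 1 dose, 12 to 80 under both, 540 to 982 in the mean, 0 to 1 in the difference, and a correlation of 0.264 to 0.410. Repeated-dose calls moved by over 1.5 times without repeated-dose TCE 1 (164), TCE 2 (120), TCE 4 (154), oil 1 (100), oil 3 (167) or oil 4 (147). Single-dose calls did so without single-dose TCE 1 (22), TCE 2 (55), TCE 4 (25), oil 2 (38) or oil 4 (31), or repeated-dose TCE 1 (78), TCE 2 (92) or TCE 4 (71). Calls under both did so without each array but repeated-dose TCE 3, repeated-dose oil 2, single-dose oil 1 and single-dose oil 3, and calls in the mean without repeated-dose TCE 2 (540), repeated-dose oil 1 (553), single-dose oil 2 (558) or single-dose oil 4 (555). A difference passed for 1 probe set without repeated-dose TCE 1 (Clcn1) and for another without repeated-dose TCE 3. Of named genes, 31 of 60 repeated-dose calls and 6 of 40 single-dose calls held whichever array was left out. Arrays with the same replicate number correlated by -0.144 to 0.197 in their deviations (median 0.014). Arrays with different numbers correlated by -0.224 to 0.189 (median -0.013). The ranges were alike, so no pairing by number was seen. With the replicate block there were 180 calls after repeated doses, 59 after 1 dose and 25 under both. Ratios hold no signal level, so what background limits could not be seen.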

Other observations

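Of the nuclear receptors and hepatocyte factors measured (20 genes), 2 rose after repeated doses, Pparg and Onecut1, and none after 1 dose, beside 2.34% of all genes higher after repeated doses and 1.16% after 1 dose. Onecut1, a hepatocyte transcription factor, had ratios of 21.4, 4.14, 8.41 and 20.4 on repeated-dose TCE arrays, against 0.291, 3.96, 1.70 and 0.300 on oil arrays. With 1 dose it had 1.53, 3.45, 8.62 and 1.69 on TCE arrays and 4.06, 1.24, 0.763 and 0.348 on oil arrays. The repeated-dose groups were only just apart and the single-dose groups overlapped. Effects were 3.67 ± 0.93 after repeated doses (adjusted p = 0.0499) and 1.46 ± 0.93 after 1 dose. Of 18 cell cycle and DNA replication genes, 1 rose after repeated doses and 2 after 1 dose, beside the same shares of all genes. Tyms, thymidylate synthase, had 2.29, 2.64, 1.65 and 1.32 on repeated-dose TCE arrays, against 0.855, 1.0, 1.0 and 1.15 on their oil arrays, and 2.47, 2.26, 2.05 and 2.08 on single-dose TCE arrays, against 1.42, 0.909, 1.09 and 0.416 on theirs. Its effect was 0.94 ± 0.32 after repeated doses (adjusted p = 0.116), and it rose by 1.34 ± 0.32 after 1 dose (adjusted p = 0.0479). Of 17 interferon response genes, 1 rose after 1 dose, beside 1.16% of all genes higher, and none passed after repeated doses. It was Cxcl10, a chemokine, with effects of 0.47 ± 0.27 after repeated doses and 1.16 ± 0.27 after 1 dose (adjusted p = 0.0479 for 1 dose). The list's median effect was below 0, at -0.26 after repeated doses and -0.28 after 1 dose.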
